A study of Mus musculus with 3 samples.

Results

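The cells described here were kidney CD4+ T cells that carried transcripts of both Ramp3 and Fosl2. They were chosen by measured values: at least 1 UMI (a counted RNA molecule) of each of these genes, and 0 UMIs of Esm1, Ppp2r2c, Grb7, Foxp3, Cd8a and Cd8b1. Of 4979 kidney cells kept from the first day of the experiment, 620 met this rule, and the deposited data hold 30891 cell entries over both organs and both days. The same rule found 60 cells among 8358 spleen cells of the same mice. The levels of the 8 genes of the rule are therefore given as a description and support nothing.

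The mice were of the lupus-prone MRL/lpr strain, in which mutation of the death receptor Fas lets T cells accumulate. Mice called WT carried loxP-flanked Ezh2 (Ezh2fl/fl) without Cre, and mice called KO carried the same floxed Ezh2 and CD4-Cre/ERT2, a Cre that the Cd4 promoter drives and tamoxifen activates. Both genotypes therefore carried the floxed allele, after 6 generations of crossing to MRL/lpr, and both received tamoxifen at 300.0 mg/kg. Treatment began at 10 or 14 weeks of age and lasted to 24 weeks, and the start of each mouse was not given. The sort had drawn on 10 floxed and 9 Cre-carrying mice, and each mouse and organ was marked with 1 antibody tag before single-cell sequencing of transcript 5′ ends. The 2 KO and 3 WT mice used here, KO1, KO2, WT1, WT2 and WT3, each gave cells from both organs. The study asked how inducible loss of Ezh2 in CD4+ T cells bears on the T cells of the kidney.

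Ramp3 is a receptor activity-modifying protein, a single-pass partner that gives the calcitonin receptor-like receptor (Calcrl) its affinity for adrenomedullin and CGRP, and the paired receptor raises cyclic AMP. Fosl2 is a Fos-family subunit of the transcription factor AP-1, which pairs with Jun proteins and takes part in activation and tissue programmes of T cells. Crem is a cyclic AMP responsive transcription factor whose ICER forms repress cyclic AMP targets, Tnfsf11 encodes RANKL, a TNF-family ligand, Neurl3 is a RING-type ubiquitin ligase, and Itgb1 is the integrin beta-1 chain, which binds matrix with several alpha chains.

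The identity of every mouse below rests on the tag sequences of the kidney samples, which the deposited key gives as follows.
KO1: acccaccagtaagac
KO2: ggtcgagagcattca
WT1: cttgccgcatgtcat
WT2: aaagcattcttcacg
WT3: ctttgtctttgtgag
The matrices give tags by number, and these were joined to the key by its order. In all 10 first-day blocks of barcodes, 99.5% of cells or more had the same leading tag, and these blocks shared 0 barcodes in 45 pairs. The 8 second-day blocks held largely the same cells under several mice and both organs (6 of them with identical gene counts), so no mouse was named for them and they enter no comparison between groups.

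Because the chosen genes lie at the centre of the description, the 250 bases upstream of the start in the RefSeq promoter table (GRCm38.p6) are shown for both genes of the rule and for Neurl3. For Neurl3 and Ramp3 that start lies inside the annotated gene span (chr1:36264602-36274674 and chr11:6658506-6677478), so the span begins further upstream than the start used. Capitals mark the shorter cyclic AMP motif, and sequences run 5′ to 3′ on the gene's strand.
Ramp3, chr11:6658283-6658532, plus strand: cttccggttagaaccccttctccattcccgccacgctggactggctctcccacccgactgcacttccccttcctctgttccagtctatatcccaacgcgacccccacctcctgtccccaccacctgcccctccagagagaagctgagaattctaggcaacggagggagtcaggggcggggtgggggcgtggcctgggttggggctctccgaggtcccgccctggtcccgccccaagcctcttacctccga
Fosl2, chr5:32136222-32136471, plus strand: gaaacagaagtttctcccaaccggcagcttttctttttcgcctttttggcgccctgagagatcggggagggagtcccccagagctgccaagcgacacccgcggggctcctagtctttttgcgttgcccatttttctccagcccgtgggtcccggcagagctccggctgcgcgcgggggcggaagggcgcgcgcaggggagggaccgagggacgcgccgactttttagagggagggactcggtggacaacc
Neurl3, chr1:36273426-36273675, minus strand: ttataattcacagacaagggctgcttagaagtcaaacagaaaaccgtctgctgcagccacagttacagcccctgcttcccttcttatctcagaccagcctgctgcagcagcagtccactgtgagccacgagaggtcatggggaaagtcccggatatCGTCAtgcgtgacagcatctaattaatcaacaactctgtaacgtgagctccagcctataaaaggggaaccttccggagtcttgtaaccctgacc
In windows of 250 bases before to 50 after the start, 3 motifs were searched on both strands: the AP-1 site TGANTCA, the full cyclic AMP response element TGACGTCA, and its shorter form TGACG, which also lies inside the full element. Of 32851 promoters in the RefSeq table, 7.81% held TGANTCA, 1.79% held TGACGTCA and 20.8% held TGACG. Of the marker genes and the genes most raised in the chosen kidney cells, 17 were looked up and 12 matched, with 13 promoters. None of the 13 held TGANTCA or TGACGTCA (0 each), and 3 held TGACG, those of Neurl3, Itgb1 and St8sia6. Such a match is a description of letters, not a bound site.

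The chosen cells carried T cell transcripts. A UMI of Cd3e, a chain of the T cell receptor complex, was found in 93.2% to 100.0% of them per mouse, and a UMI of Cd4 in 60% to 71.7%. Median depth was 3909 UMIs in the chosen cells and 3316 in the other 4359 kidney cells, and it was higher in the chosen cells of each mouse. A reference set of 15 kidney and 17 spleen cells with markers of non-T lineages held 0 cells that met the rule and 0 cells with a Ramp3 UMI. Both counts rest on genes of the rule and on few cells, so they are not read as evidence that the chosen cells are T cells. Fibroblast and pericyte markers were at 0 in the chosen cells (6 of 6 genes), and kidney tubule markers summed to between 0 and 7.09 CPM (UMIs scaled to a common total per sum of cells) against 2.23 to 1670 in the other kidney cells. Of 8 endothelial markers 6 were at 0 (Cdh5, Kdr, Flt1, Emcn, Plvap and Egfl7), and the list summed to 51.8 to 106 CPM against 23.2 to 66.9. B cell and plasma cell markers summed to 180 to 799 against 536 to 1005, and 2 chosen cells of WT1 held 40.6% and 46.9% immunoglobulin UMIs.

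Cells with both transcripts made up 18.5% of kidney cells in KO1 (133 of 717, 95% Wilson interval 15.9 to 21.6) and 18.3% in KO2 (40 of 219, 13.7 to 23.9). They made up 20.4% in WT1 (332 of 1629, 18.5 to 22.4), 4.43% in WT2 (65 of 1467, 3.49 to 5.61) and 5.28% in WT3 (50 of 947, 4.03 to 6.89). WT1 thus stood with both KO mice and apart from the other WT mice. The level of Ezh2, the gene targeted, placed WT1 nearer the KO mice as well: in the other kidney cells it stood at 73.1 and 63.5 CPM in KO1 and KO2, 86.3 in WT1, and 157 and 139 in WT2 and WT3. In the other spleen cells it stood at 53.5, 54.9, 71.9, 172 and 152 in the same order. WT1 was above both KO mice in each organ, its genotype is given as labelled, and what its low Ezh2 level has to do with any result below was not tested. The mean share was 18.4% ± 0.201 (SD, n = 2) in KO and 10.0% ± 8.97 (SD, n = 3) in WT, a difference of 8.38 percentage points. An exact two-sided permutation test over mice gave p = 0.6, where the smallest p this test allows for 2 against 3 mice is 0.2. With each cell thinned to 2000 UMIs before the rule, the shares were 12.3% and 12.4% in KO1 and KO2. They were then 10.8%, 2.48% and 2.14% in WT1, WT2 and WT3, so both KO mice lay above all WT mice. The same permutation test gave p = 0.2 for the thinned shares, the smallest it allows. With all UMIs but without WT1 the difference was 13.6 points, with p = 0.333 as the smallest possible, also by the exact permutation test. Intervals cover counting error only.

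In the spleen the shares were 2.04% and 1.14% for KO1 and KO2, and 0.503%, 0.108% and 0.0932% for WT1, WT2 and WT3. The kidney share was higher in 5 of 5 mice, by 12.6 ± 7.28 points (SD, n = 5). With each cell thinned to 2000 UMIs before the rule was applied, the mean kidney share was 8.02% and the mean spleen share 0.263%. The kidney was dissociated with enzymes in a heated programme and the spleen was mashed, so organ and dissociation cannot be told apart here or in any organ comparison below.

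**Figure D1:**
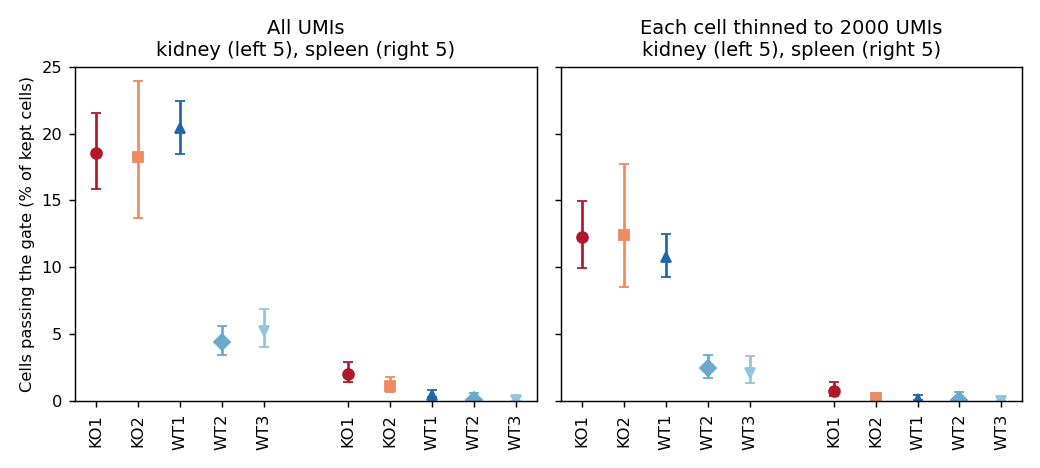
Share of kept cells that met the rule (passed the gate; percent, y axis) in kidney and spleen of each mouse (x axis), with all UMIs on the left and each cell thinned to 2000 UMIs on the right, and 95% Wilson intervals as bars. With all UMIs KO1, KO2 and WT1 lie between 18.3% and 20.4% in kidney, WT2 and WT3 at 4.43% and 5.28%, and the spleen values of the 5 mice at or under 2.04%.

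Each transcript of the pair was itself common in the mice with many such cells. A Ramp3 UMI was found in 40.9% of KO1, 39.7% of KO2 and 41.9% of WT1 kidney cells, and in 19.4% and 18.2% of WT2 and WT3 cells. For Fosl2 the shares were 51.5%, 50.7%, 48.4%, 28.6% and 23.4% in the same order. Among kidney cells at 0 for the excluded genes, the pair was found together 1.18, 1.31, 1.21, 1.74 and 2.12 times as often as the product of the single shares in KO1, KO2, WT1, WT2 and WT3. Deep cells can raise such a ratio. With each cell thinned to a common depth, the ratio was 1.17, 1.42, 1.17, 1.55 and 1.47 in the same order. These ratios are given without a test. At the edge of the rule, 114 of the 620 cells had exactly 1 UMI of each gene. Just outside it were 493 cells with Ramp3 alone and 698 with Fosl2 alone. Summed Neurl3 stood at 231 CPM in the 114 cells at the edge and at 437 in the other 506. It stood at 269 with Ramp3 alone, 238 with Fosl2 alone and 136 in the 1564 cells with neither. Summed Crem stood at 258, 330, 267, 242 and 169 in the same order, so for these 2 genes the edge cells lay near the cells with 1 transcript of the pair. Tnfsf11 stood at 280, 253, 277, 239 and 102, and Itgb1 at 832, 876, 880, 748 and 520. For Tnfsf11 and Itgb1 the cells with Ramp3 alone were thus at or above the 506 cells inside the edge. The mix of mice differed between these pools. WT2 and WT3, low in Neurl3 and Itgb1 in the other kidney cells, gave 480 and 384 of the 1564 cells with neither. They gave 71 and 60 of the 493 with Ramp3 alone. Mouse and kind of cell therefore cannot be told apart in these pooled levels.

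Levels below are CPM: UMIs summed over the cells of a mouse and scaled by TMM normalization, which sets the bulk of genes equal between sums. In such sums, fewer cells with a transcript and less of it per cell cannot be told apart. The 5 kidney sums of chosen cells held 157533 to 1527620 UMIs. Fold changes against the other kidney cells are log2 values with the fit's SE and no test, because the rule came from kidney cells of these libraries. This SE comes from the fitted model and does not measure the spread of the 5 mice.

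The given markers were higher in the chosen cells than in the other kidney cells of each mouse, taken as summed levels. Ramp3 stood at 640, 666, 562, 562 and 610 CPM in KO1, KO2, WT1, WT2 and WT3, and Fosl2 at 640, 567, 519, 551 and 490, levels set by the rule. Crem stood at 338, 404, 393, 315 and 280 in the chosen cells and at 237, 284, 316, 136 and 143 in the others (log2 difference 0.68 ± 0.13). The gap was widest in WT2 and WT3, whose other cells were low in Crem. The Foxp3 cells of WT1, which the rule left out, stood above its chosen cells, at 420. Neurl3 stood at 415, 220, 537, 329 and 435 against 255, 205, 279, 90.8 and 78.8 (1.24 ± 0.21). Tnfsf11 stood at 223, 163, 347, 122 and 445 against 191, 97.4, 232, 28.2 and 104 (1.03 ± 0.22). Itgb1 stood at 945, 1197, 1195, 337 and 545 against 762, 712, 960, 201 and 211 (0.66 ± 0.13). Itgb1 thus varied more between mice than between the cells of a mouse, with WT2 and WT3 low in both.

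A Crem UMI was found in 63.7% ± 8.50 of chosen cells (SD over 5 mice), an Itgb1 UMI in 66.0% ± 12.9, a Neurl3 UMI in 44.4% ± 12.3 and a Tnfsf11 UMI in 32.6% ± 12.8. Within mice the order of these shares varied by gene. For Crem the chosen cells were higher in each mouse, at 57.9%, 77.5%, 66.0%, 56.9% and 60% against 48.6%, 52.0%, 53.6%, 34.2% and 34.4% of the other kidney cells of KO1, KO2, WT1, WT2 and WT3. For Itgb1 they were lower in KO1 (69.2% against 70.2%) and KO2 (62.5% against 64.2%), for Neurl3 in KO2 (32.5% against 33.0%) and for Tnfsf11 in KO1 (24.8% against 27.6%). After thinning to 2000 UMIs the shares in chosen cells were 47.1% for Crem, 63.3% for Itgb1, 32.3% for Neurl3 and 27.0% for Tnfsf11. In the non-T reference cells of the kidney, whose median depth was 6019 UMIs, 20.0% held a Crem UMI, 40.0% a Neurl3 UMI, 66.7% an Itgb1 UMI and none of the 15 a Tnfsf11 UMI (0%). The Itgb1 share was not above that of the reference and the Neurl3 share was little above it, so neither share is read as a marker of these cells on its own. Calcrl, the receptor that Ramp3 partners, was near the floor of detection, with a mean of 8.37 CPM in chosen and 8.53 in other kidney cells.

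**Figure D2:**
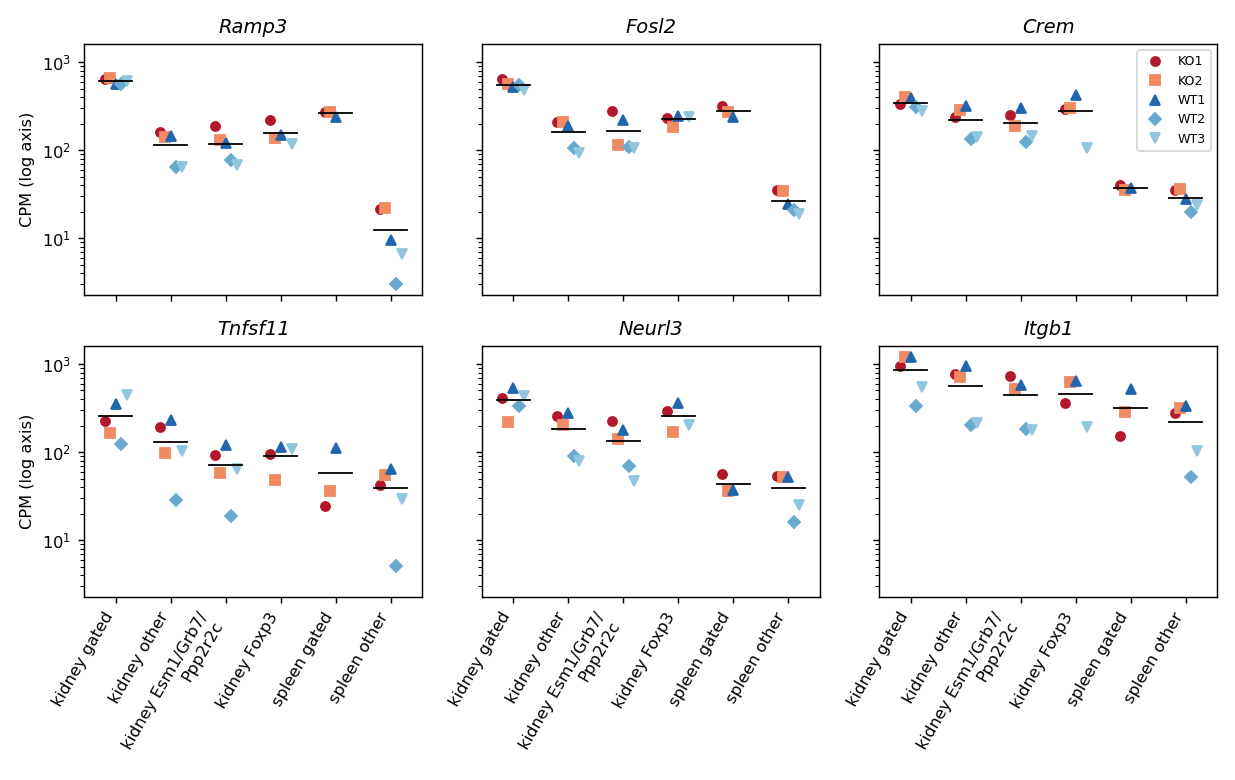
Levels of the 6 given marker genes (CPM after TMM scaling, log y axis) by set of cells (x axis), 1 point per mouse with at least 10 cells and a line at the mean. Gated cells are those that met the rule, and the other kidney cells include those with Esm1, Grb7 or Ppp2r2c and with Foxp3, which are also shown apart. Ramp3 and Fosl2 are set by the rule, and Crem lies between 280 and 404 in gated kidney cells against 35.7 to 40.2 in gated spleen cells of 3 mice.

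Among the genes that differed from the other kidney cells, many on the circulation and naive list were higher, and cytotoxic and chemokine genes were lower. Of 7914 genes compared, 758 (9.58%) were higher in all 5 mice and 710 (8.97%) lower, while 3 (0.0379%) were at least 2-fold higher in every mouse and 15 (0.19%) at least 2-fold lower. The 3 were Trib2, St8sia1 and Fgfr1, and the 2-fold genes numbered 33 in all without KO2 and 30 without WT1 or without WT2, against 18. Ccr7, the chemokine receptor that guides T cells into lymph nodes, stood at 1760, 1715, 583, 366 and 295 CPM against 647, 794, 363, 52.7 and 83.4 (log2 difference 1.47 ± 0.19). In every mouse the chosen cells were higher than the other kidney cells, and the KO mice were the highest in both sets of cells. The Foxp3 cells, which the rule left out, stood at 557, 580, 588 and 333 CPM in KO1, KO2, WT1 and WT3. They were above the chosen cells in WT1 and WT3 and below them in KO1 and KO2. WT2 had too few Foxp3 cells for a sum.

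Of the 14 genes on the list of circulation and naive genes, all tested, 10 were higher in every mouse and 0 lower, with a median log2 difference of 0.88 against -0.01 over all genes. The 10 were Ccr7, S1pr1, Klf2, Klf3, Lef1, Tcf7, Actn1, Satb1, Il7r and Bach2. S1pr1, the sphingosine-1-phosphate receptor used to leave tissue, stood at 317, 581, 302, 118 and 220 against 190, 263, 176, 43.1 and 42.5. Klf2, the transcription factor that drives S1pr1, stood at 2395, 3458, 1894, 2032 and 2265 against 1637, 1887, 1200, 786 and 817. Il7r, the receptor chain for the survival cytokine IL-7, stood at 561, 503, 738, 329 and 430 against 426, 333, 396, 58.1 and 109. In each mouse the chosen cells were higher for these 3 genes, while the ranges over mice overlapped.

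The list of tissue residency genes was mixed. Of 18 tested members 5 were higher in every mouse (Bhlhe40, Nr4a1, Vps37b, Tmem123 and Ppp1r15a), beside 9.58% of all genes, and 2 were lower (Itga1 and Prdm1), beside 8.97%, with a median log2 difference of -0.00. Cd69, which holds T cells in tissue by opposing S1pr1, stood at 417, 283, 367, 503 and 435 against 493, 429, 421, 452 and 446. Cxcr6, a chemokine receptor of resident cells, stood at 54.6, 28.3, 112, 155 and 130 against 120, 117, 166, 148 and 130. For both genes the chosen and the other cells overlapped. After thinning, 3 of 15 residency genes were higher in every mouse and 0 lower (median 0.18), beside 5.42% and 7.49% of all genes. With comparison cells also at 0 for the excluded genes, 4 of 17 were higher and 1, Prdm1, lower (median 0.09). All genes then stood at 7.96% and 7.31%. Cd69 and Cxcr6 were not among the higher ones in either setting. The name tissue T cells is therefore not used here, and the cells are called by the rule.

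The other genes with the largest positive differences were Fgfr1 (1.98 ± 0.37), a fibroblast growth factor receptor, Ly6c1 (1.55 ± 0.45), a GPI-anchored surface protein, and St8sia1 (1.51 ± 0.25), a ganglioside sialyltransferase. Atn1 (1.44 ± 0.22), Rflnb (1.42 ± 0.25), Tdrp (1.42 ± 0.32), St8sia6 (1.42 ± 0.28), Prss12 (1.28 ± 0.30), Ifngr2 (1.27 ± 0.31) and Trib2 (1.26 ± 0.17) followed. Ifngr2 is a chain of the interferon-gamma receptor and Trib2 a pseudokinase. These are log2 differences with the fit's SE, which is not the spread between mice. The SD of the 5 mice's own log2 differences was 1.29 for Fgfr1, 1.54 for Ly6c1, 1.12 for St8sia1 and 0.38 for Trib2. Several of these genes were near 0 in the other cells of WT2, where St8sia1 stood at 3.14 CPM against 55.5 in the chosen cells. After thinning, Trib2 was higher in 3 of 5 mice (0.74), and Neurl3 (0.61), Rflnb (1.07) and the marker Tnfsf11 (0.67) in 4 of 5. St8sia1 (1.53), Ccr7 (1.10) and Atn1 (1.01) stayed higher in 5 of 5. Fgfr1, Ly6c1, Tdrp, St8sia6, Prss12 and Ifngr2 had too few counts after thinning to be compared.

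Lower in every mouse were the chemokines of effector T cells. Ccl5 stood at 397, 1686, 1682, 5499 and 2630 CPM in the chosen cells against 4421, 5677, 7729, 17525 and 8602 (log2 difference -2.10 ± 0.18). Ccl4 stood at 13.1, 28.3, 47.7, 59.2 and 90 against 225, 340, 345, 907 and 535 (-3.20 ± 0.17). The chosen cells of the mouse with the most Ccl5, WT2, were still below the other cells of that mouse. Ccl3 (-1.91 ± 0.24) followed, and its annotated span overlaps that of Ccl4, so counts could be split between them. The remaining genes of this end were Gzmb (-2.54 ± 0.31) and Prf1 (-2.47 ± 0.24), which encode granzyme B and perforin, Penk (-2.38 ± 0.26), Cmtm7 (-1.69 ± 0.19, and -0.72 after thinning) and Spp1 (-1.64 ± 0.33), which encodes osteopontin.

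The list counts with all UMIs in this paragraph stand beside 9.58% of all genes higher in every mouse and 8.97% lower. Of 13 cytotoxic genes tested 0 were higher in every mouse and 6 lower (Gzmb, Gzmk, Prf1, Nkg7, Ccl5 and Eomes), with a median log2 difference of -1.44. Of 13 inhibitory receptor genes 7 were lower (Pdcd1, Havcr2, Tigit, Ctla4, Tox, Tox2 and Entpd1), with a median of -0.70. With each cell thinned to 2000 UMIs 3 of 10 were lower (Pdcd1, Tigit and Entpd1), beside 7.49% of all genes. Pdcd1, which encodes PD-1, stood at 76.4, 63.8, 169, 44.4 and 45.0 against 182, 153, 208, 68.2 and 84.3. Of 16 cell cycle genes 9 were lower in every mouse (median -0.67), and of 10 chemokine receptors 4 were lower and 1, Cxcr4, was higher (median -0.69). Of 8 genes of follicular helper cells 5 were lower. No gene of these lists was higher except Cxcr4 and Slamf6.

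The pathway around Ramp3 gave a mixed picture. For the lists that follow, 9.58% of all genes were higher in every mouse and 8.97% lower. Of 28 cyclic AMP signalling genes tested 6 were higher in every mouse and 3 lower, with a median log2 difference of 0.08. Among the higher ones were Crem, the adenosine receptor Adora2a, the salt-inducible kinase Sik1, and the orphan nuclear receptors Nr4a1 and Nr4a3, and lower were the phosphodiesterase Pde4d, Nr4a2 and Gem. Nr4a3 stood at 852, 723, 608, 703 and 520 CPM against 511, 520, 450, 343 and 359, higher within each mouse. Nr4a2 stood at 424, 290, 346, 574 and 515 against 503, 513, 575, 655 and 698, lower within each mouse. Of 12 AP-1 family genes other than Fosl2 5 were higher (Junb, Maff, Mafk, Atf3 and Bach2) and 1, Batf, was lower. Of 14 NF-kappaB response genes 4 were higher (Nfkb1, Relb, Tnfaip3 and Birc3). Of 11 TNF-family ligands 2 were higher, Tnfsf11 and Tnfsf8, and 0 lower. Of 23 genes induced by dissociation or early activation 7 were higher and 0 lower, with a median of 0.17, and the list summed to 21934 to 29570 CPM against 18270 to 25438 in the others. The part of that list in these differences was not tested. After thinning to 2000 UMIs, 5.42% of all genes were higher in every mouse and 7.49% lower. Of 24 cyclic AMP genes 5 were then higher and 3 lower, and of 10 AP-1 genes 3 and 2. Of 14 NF-kappaB genes 0 were higher, of 7 TNF-family ligands 1 (Tnfsf8), and of 22 dissociation or early activation genes 2, with 2 lower. The median of the dissociation and early activation list was then -0.03. It was -0.10 with comparison cells also at 0 for the excluded genes.

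These differences also depend on which kidney cells stand on the other side, since the rule removed cells with Esm1, Grb7 or Ppp2r2c (1279 kidney cells) and Foxp3 (178). With comparison cells also at 0 for the excluded genes, 8 of 13 circulation genes (median 0.71) and 6 cytotoxic genes kept their direction in every mouse, but 1 of 11 cell cycle genes did. Of 13 inhibitory receptor genes 3 were then lower in every mouse (Pdcd1, Tigit and Tox2), beside 7.31% of all genes. Of 8 TNF-family ligands 0 were then higher in every mouse. Of the 12 named raised genes, all 12 kept a positive log2 difference, and Ly6c1 was higher in 4 of 5 mice. Cmtm7 was lower in 4 of 5, and Tnfsf11 and Itgb1 were each higher in 4 of 5.

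**Figure D3:**
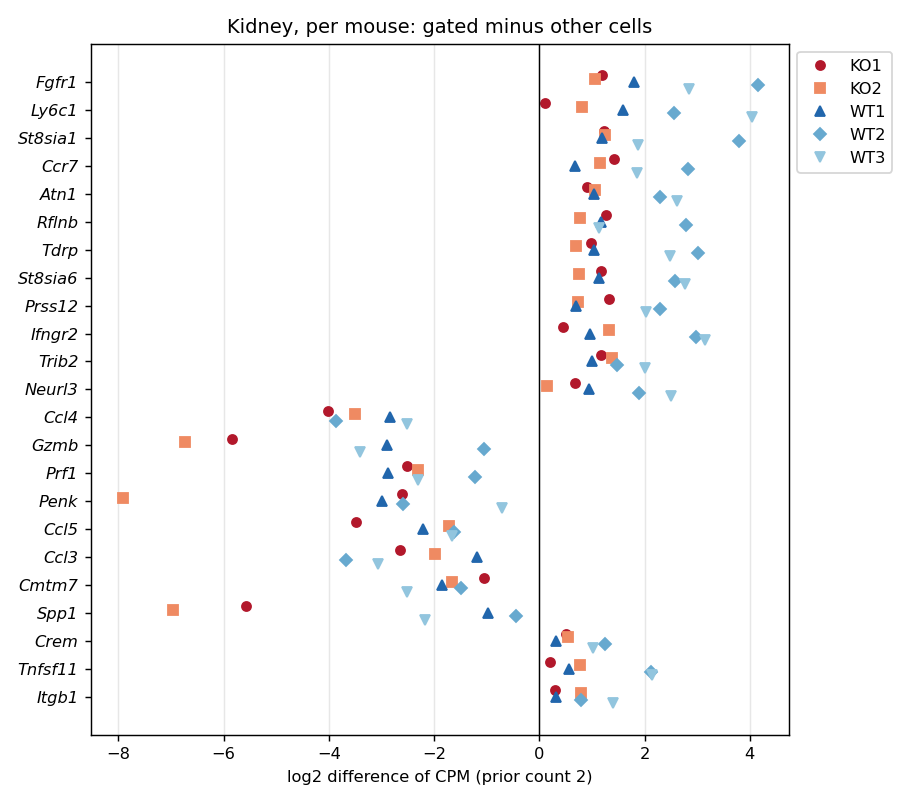
Log2 difference in CPM between chosen (gated) and other kidney cells (x axis, with a prior count of 2) for the named genes (y axis), 1 point per mouse. Every named gene lies on the same side of 0 in all 5 mice, and the points of Gzmb, Penk and Spp1 at the far left belong to KO mice whose chosen cells had few or 0 UMIs, where the size depends on the prior count.

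Spleen cells, which had no part in the choice, gave the comparison that could be tested. Within KO1, KO2 and WT1, which had 27, 18 and 12 spleen cells meeting the rule, these cells were compared with the other spleen cells of the same mouse. Their median depth was 4608, 4707 and 3954 UMIs, against 3625, 3538.5 and 3305.5 in the others. The part of depth in the calls was not tested. At an adjusted p under 0.05 (edgeR quasi-likelihood test, mouse as a block, Benjamini-Hochberg), 18 of 9910 genes rose (0.182%) and 68 fell (0.686%). Of the genes named in kidney, 3 of the 12 raised ones rose in spleen too (Ccr7, St8sia6 and Ifngr2), and 5 of the 8 lowered ones fell (Ccl4, Penk, Ccl5, Ccl3 and Spp1). The given markers did not pass the test in spleen: Crem stood at 40.2, 35.7 and 37.2 CPM against 35.1, 36.7 and 27.8 (log2 difference 0.13 ± 0.56), and edgeR's quasi-likelihood test, Benjamini-Hochberg adjusted, gave adjusted p between 0.981 and 0.997 for Crem, Tnfsf11, Neurl3 and Itgb1. The log2 differences were -0.24 ± 0.48 for Neurl3, -0.17 ± 0.48 for Tnfsf11 and -0.14 ± 0.24 for Itgb1. For each of these genes the mice lay on both sides of 0, beside 1.24, 1.03 and 0.66 in kidney. Crem had the largest error, so a Crem difference like the 0.68 in kidney could not be told from 0 here. Whether the marker differences themselves differed between organs was not tested.

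Igfbp4, a binding protein for insulin-like growth factors that marks naive CD4+ T cells, stood at 2614, 1975 and 521 CPM in the spleen cells meeting the rule and at 1434, 787 and 42.8 in the others (log2 1.5 ± 0.18). Maff, a small Maf protein, stood at 450, 262 and 168 against 124, 79.6 and 22.1 (1.94 ± 0.27). For both genes the difference had the same direction in 3 of 3 mice, and edgeR's quasi-likelihood test, Benjamini-Hochberg adjusted gave adjusted p of 8.55e-13 and 2.11e-09. The others that rose most were Bambi (2.23, at 0 in the 12 cells of WT1), Acvr2a (2.16), Ifitm3 (1.98), Ifitm2 (1.90), Ifngr2 (1.65), Dapl1 (1.61), St8sia6 (1.41) and Satb1 (1.05). Satb1 did not differ in WT1 (37.2 against 38.8 CPM). Of these 8 genes each lost the threshold when KO1 or KO2 was left out, and without KO2 Ifitm3 stood at 1.20 and Dapl1 at 0.74. Bambi and Acvr2a belong to TGF-beta family signalling, and Ifitm2 and Ifitm3 are interferon-induced membrane proteins. On the list of circulation and naive genes 4 of 14 rose (Ccr7, Igfbp4, Satb1 and Dapl1) and 0 fell, with a median of 0.59 against -0.20 over all genes, or -0.13 with genes at 0 set to their bound.

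All 10 genes with the largest fall in spleen were at 0 UMIs in these 57 cells, so that each fold is a lower bound: the UMIs that the other cells' level in each mouse would give in these cells, over 3 counts for the group. Eomes, a transcription factor of cytotoxic and memory cells, was at least 8.07-fold lower, Sostdc1 7.40-fold, Gzmk 7.17-fold and Spp1 5.78-fold. Mki67, the proliferation marker, was at least 5.29-fold lower and Hist1h1b 5.05-fold, and for Gm30211, Snx9, Pclaf and Tox2 the bounds lay between 3.10-fold and 4.04-fold. These 6 calls were lost with comparison cells at 0 for the excluded genes, with adjusted p of 0.0529 for Mki67, 0.141 for Hist1h1b, 0.141 for Gm30211, 0.222 for Snx9, 0.596 for Pclaf and 0.0518 for Tox2 (edgeR quasi-likelihood, Benjamini-Hochberg). Of 13 cytotoxic genes 4 fell (Gzmk, Nkg7, Ccl5 and Eomes), of 14 inhibitory receptor genes 5 fell (Pdcd1, Lag3, Tigit, Ctla4 and Tox2), and of 17 effector cytokines and chemokines 7 fell. The lists' medians were -1.24, -1.18 and -2.25 with genes at 0 set to their bound. The number of calls depended on the block by mouse: without it edgeR's quasi-likelihood test called 0 genes (876 had an unadjusted p under 0.05), and 16 were called by DESeq2. Without KO1 38 genes passed and without KO2 37, and 48 passed with comparison cells at 0 for the excluded genes.

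Cells meeting the rule in kidney were then compared with those in spleen, in the same 3 mice. Crem, Neurl3, Tnfsf11 and Itgb1 were higher in the kidney cells, while Igfbp4, Jun and Myc were lower. At an adjusted p under 0.05 (edgeR quasi-likelihood test, mouse as a block, Benjamini-Hochberg), 106 of 2092 genes were higher in kidney (5.07%) and 41 lower (1.96%). Crem stood at 338, 404 and 393 CPM in kidney and at 40.2, 35.7 and 37.2 in spleen (log2 3.01 ± 0.36, adjusted p = 0.000489 by edgeR's quasi-likelihood test, Benjamini-Hochberg adjusted). The organs did not overlap, nor did they in the other cells, where Crem stood at 237, 284 and 316 in kidney and 35.1, 36.7 and 27.8 in spleen. Whether the organ difference was larger in the chosen cells was not tested.

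Neurl3 stood at 415, 220 and 537 in kidney against 56.3, 35.7 and 37.2 in spleen (log2 2.77 ± 0.35). Tnfsf11 stood at 223, 163 and 347 against 24.1, 35.7 and 112 (1.99 ± 0.41), and Itgb1 at 945, 1197 and 1195 against 153, 286 and 521 (1.65 ± 0.28). Each was higher in kidney in 3 of 3 mice, with adjusted p of 0.000734, 0.0101 and 0.00415 by edgeR's quasi-likelihood test, Benjamini-Hochberg adjusted. The other genes with the largest rise were Tubb2a, Pttg1 (2.76), Crip2 (2.75), Mpp7 (2.73), Tnfrsf1b (2.67), Creb3l2 (2.50), H2afx (2.45) and Skil (2.42). Tubb2a had 3 UMIs in the spleen cells, and its ratio of summed counts was 8.15 with a counting interval of 2.75 to 39.8. Tnfrsf1b is TNF receptor 2, Creb3l2 a transcription factor of the CREB3 family, and Skil a repressor of TGF-beta signalling.

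Igfbp4 fell the most, from 2614, 1975 and 521 in spleen to 389, 546 and 47.7 in kidney (log2 -2.85 ± 0.28). Jun, an AP-1 subunit, stood at 448, 383 and 405 in kidney against 2180, 2296 and 596 in spleen (-2.16 ± 0.27). Both were lower in kidney in 3 of 3 mice. Myc (-2.07), Dtx1 (-1.75), Ten1 (-1.69), the heat shock gene Hspa1b (-1.66), Tbl1x (-1.61), Izumo1r (-1.57) and Dennd1a (-1.56) were also among the genes with the largest fall, as log2 differences.

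The list counts here stand beside 5.07% of all genes higher in kidney and 1.96% lower. By list, 4 of 19 cyclic AMP genes rose in kidney (Crem, Creb3l2, Nr4a3 and Rgs2) and 0 fell, with a median of 0.55 against -0.03 over all genes. Of 6 TNF-family ligands 3 rose (Tnfsf11, Tnfsf8 and Fasl) and 1, Ltb, fell. Of 10 residency genes 4 rose (Rgs1, Rgs2, Bhlhe40 and Vps37b) and 2 fell (Cd69 and Ppp1r15a). Rgs1, a regulator of G protein signalling, stood at 2843, 2359 and 2804 in kidney against 595, 642 and 372 in spleen. Of 13 circulation genes 1 rose, Klf3, and 4 fell, Lef1, Tcf7 and Igfbp4 among them. Of 12 annexin, S100 and related genes 5 rose (Anxa2, S100a10, Vim, Crip1 and Ahnak). Of 22 dissociation and early activation genes 1 rose, Dnaja1, near the share of all genes, and 3 fell (Fos, Jun and Hspa1b). The spleen sums held 45526 to 131030 UMIs. Without KO1 0 genes passed (237 at an unadjusted p under 0.05), without KO2 54 and without WT1 26, and DESeq2 called 73.

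**Figure D4:**
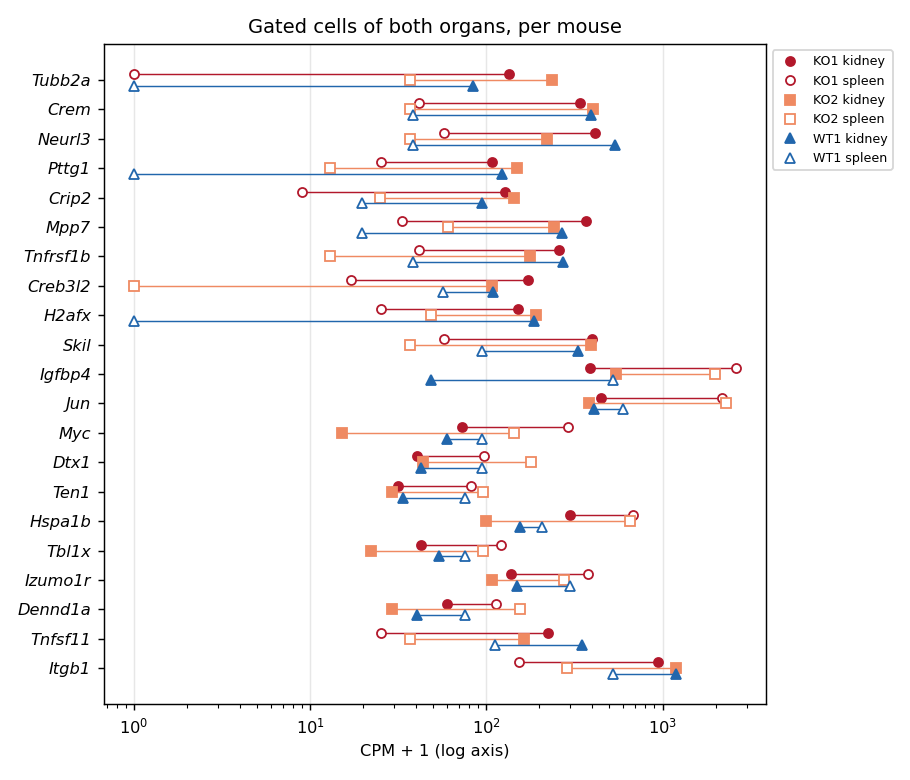
Levels (CPM after TMM scaling, plus 1, log x axis) of genes with the largest difference between kidney (filled) and spleen (open) cells meeting the rule, and of Tnfsf11 and Itgb1, with a line joining the organs of each of 3 mice. Crem lies between 338 and 404 in kidney and between 35.7 and 40.2 in spleen, Igfbp4 lies lower in kidney, and points at the left edge had 0 UMIs.

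The last comparison was between genotypes within the chosen kidney cells, 173 cells of 2 KO mice and 447 of 3 WT mice. Ccr7, Lef1, Igfbp4 and other genes of the circulation and naive list were higher in KO, and S100a6, S100a10 and Lgals1 were lower. Ezh2, the methyltransferase subunit of Polycomb repressive complex 2 and the gene targeted, stood at 89.5 and 42.5 CPM in KO and at 102, 118 and 115 in WT (log2 -0.56 ± 0.30, adjusted p = 0.623 by edgeR's quasi-likelihood test, Benjamini-Hochberg adjusted). The KO values lay below the WT values, without passing the test, while in the other cells WT1 stood nearer the KO mice, as given above. Which part of the transcript the deletion removes, set against the 5′ reads, was not given, so this level is a weak check of the labels.

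At an adjusted p under 0.05 (edgeR quasi-likelihood test, Benjamini-Hochberg), 10 of 4307 genes were higher in KO (0.232%) and 8 lower (0.186%). Igfbp4 stood at 389 and 546 in KO and at 47.7, 14.8 and 5.00 in WT (log2 3.80 ± 0.40). Ccr7 stood at 1760 and 1715 against 583, 366 and 295 (2.02 ± 0.22), and Lef1, which helps to maintain the naive state, at 371 and 588 against 141, 130 and 100 (1.88 ± 0.25). The genotypes did not overlap, and edgeR's quasi-likelihood test, Benjamini-Hochberg adjusted gave adjusted p of 0.00135, 0.00135 and 0.00641. Maff stood at 391 and 418 against 117, 88.8 and 100.0. Amigo2 (3.88), Plaur (3.13), Actn1 (2.45), Satb1 (1.67) and Bach2 (1.03) were also higher, as log2 differences.

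S100a6, a calcium-binding protein, stood at 330 and 305 in KO against 865, 770 and 785 in WT (log2 -1.33 ± 0.16). Lgals1, which encodes galectin-1, stood at 432 and 517 against 1131, 870 and 1135 (-1.15 ± 0.17), and Nkg7, a granule membrane protein, at 282 and 283 against 599, 1051 and 805 (-1.51 ± 0.24). Again the genotypes did not overlap. S100a10 (-0.81), Pfn1 (-0.70), Crip1 (-0.56) and Actb (-0.49) were lower by less. Gm30211, a long noncoding RNA just beyond Igkc on chromosome 6, had 1 UMI in KO and 100 in WT, a ratio of 33.3 with a counting interval of 5.84 to 1328.

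Of the circulation and naive list 6 of 12 tested genes were higher in KO (Ccr7, Lef1, Igfbp4, Actn1, Satb1 and Bach2) and 0 lower, with a median log2 difference of 1.00 against -0.01 over all genes. Of 13 annexin, S100 and galectin genes 4 were lower (S100a6, S100a10, Lgals1 and Crip1). Of 10 AP-1 genes Maff and Bach2 were higher. The given markers did not pass: the log2 difference was 0.13 for Crem, -0.60 for Tnfsf11, -0.40 for Neurl3 and 0.58 for Itgb1, with adjusted p of 0.928, 0.711, 0.711 and 0.704 (edgeR quasi-likelihood, Benjamini-Hochberg). A p above the threshold does not show that genotypes were alike.

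**Figure D5:**
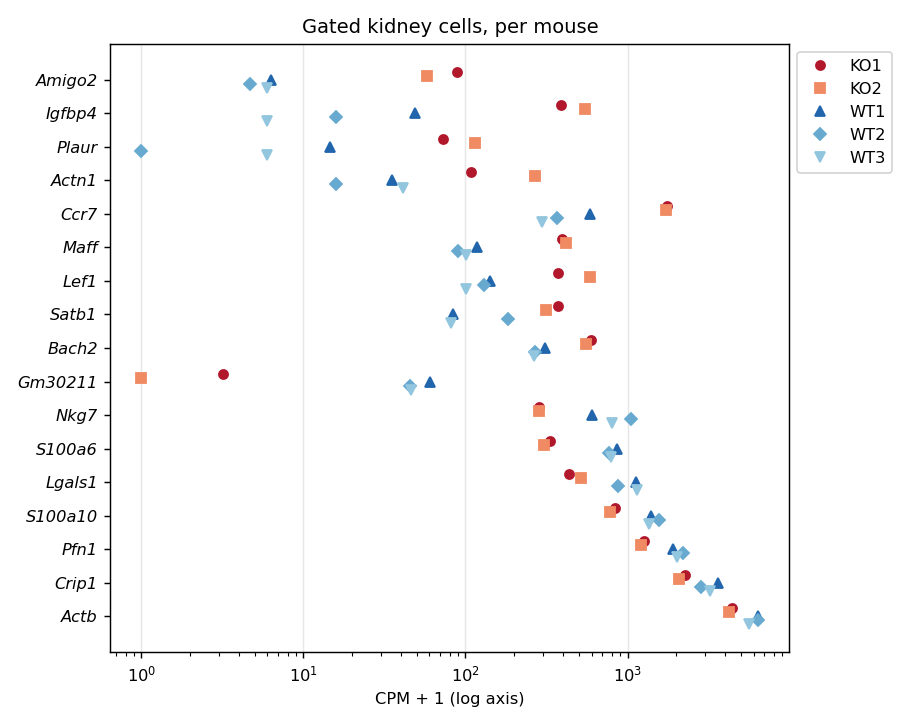
Levels (CPM after TMM scaling, plus 1, log x axis) of genes that differed between genotypes in the chosen (gated) kidney cells, 1 point per mouse. KO1 and KO2 lie above the 3 WT mice for Ccr7 (1715 and 1760 against 295 to 583) and below them for S100a6 (305 and 330 against 770 to 865).

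The same genes leaned the same way in the other kidney cells. Ccr7 averaged 720 in KO and 166 in WT there, Igfbp4 216 and 20.2, and S100a6 846 and 1275 CPM. A test of the difference in genotype effect between chosen and other kidney cells (edgeR quasi-likelihood interaction, mouse as a block, Benjamini-Hochberg) called 8 of 8854 genes (0.0904%). Among the 18 genes that differed by genotype only Lgals1 was one of them (log2 -1.03, adjusted p = 0.0259 by edgeR's quasi-likelihood test, Benjamini-Hochberg adjusted), and the others had adjusted p of 0.52 or more. Lgals1 averaged 1085 in KO and 1161 in WT in the other cells. The genotype difference was thus not shown to be particular to the chosen cells for the other genes. The interaction called 0 genes without KO1 (504 at an unadjusted p under 0.05), 5 without KO2, 62 without WT1 and 1 without WT2, and DESeq2 called 0 (144 unadjusted).

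Median depth of the chosen cells was lower in KO (3595 and 3770 UMIs) than in WT (4052, 4147 and 4296), and T cell identity genes summed to 6651 and 5888 CPM against 7593 to 8041, and the part of these in the genotype differences was not tested. After thinning to 2000 UMIs 2 genes passed, Igfbp4 and Maff. Without KO1 or without KO2 4 genes passed, without WT3 6 and without WT1 30.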

How the data were processed

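Whole UMI counts were deposited, 1 matrix per organ, with no normalization. The mm10 (GRCm38) genome, Seurat 5.0.1 and Cell Ranger 7.1.0 are named per the submitters' processing notes, and the sources used here give no other settings. The members, gene lists and tests were chosen with earlier results of these data known. Cells of the first day with at least 200 genes and under 10% mitochondrial UMIs were kept, 13 cells whose leading tag was not their block's were dropped, and no doublet caller was run. Counts were summed per mouse, organ and set of cells (at least 10 cells) and fitted in edgeR 4.0.16 (R 4.3.3) with TMM scaling, filterByExpr, the quasi-likelihood test and Benjamini-Hochberg adjustment at 0.05. The replicate number marks the animal, so sums of the same mouse were paired by a block where both sides came from it. The 8 genes of the rule were left out of calls. Levels are counts per sum scaled by 1 set of TMM factors over all sums (CPM). Each mouse is 1 replicate.

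Named genes were the given markers, all list members past the test, and in kidney the 12 highest and 8 lowest fitted differences among genes with a mean of at least 20 CPM and the same direction in every mouse. In tested comparisons they were the 10 largest rises and falls past the threshold, without receptor, ribosomal and mitochondrial genes. Some genes that met this rule are not reported here. Positions and upstream sequences came from RefSeq (GRCm38.p6), where 82 of 84 named genes matched by symbol. Alternatives were DESeq2 1.42.0, no filter, no block, each mouse left out, a rule of at least 2 UMIs, comparison cells at 0 for the excluded genes, and thinning to 2000 UMIs. Leaving out cells with over 10% immunoglobulin UMIs was chosen after seeing the data. Scripts were tested on simulated data.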

Additional observations from a re-analysis of the deposited data

Results flagged for a closer look

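St8sia1 and Rflnb each had 1 mouse whose log2 difference between the chosen and the other kidney cells stood apart from the other 4: 3.80 and 2.78, both in WT2. The gap to the nearest mouse, as a share of the range, was above Dixon's critical value of 0.71. Of 22 gene groups of 5 mice examined these were the ones past it, and chance alone gives about 1 in 20. WT2 was also the mouse with the fewest chosen cells relative to its kidney cells, 4.43%.

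The effect of genotype differed between chosen and other kidney cells for 8 genes by the interaction test (edgeR quasi-likelihood, mouse as a block, Benjamini-Hochberg). The differences of log2 effects were -18.74 for Igkv17-127, -9.15 for Klrc1, -8.87 for Spp1, -6.90 for Ccl1, -2.12 for Ly6c2, -1.19 for S100a4, -1.03 for Lgals1 and 2.78 for H2-Aa. The first 3 are fitted values of genes at 0 in the chosen cells of both KO mice and are not bounds. The Igkv17-127 value came with 2 WT1 cells of 20780 and 25130 UMIs that held 1422 to 1575 UMIs of the plasma cell gene Jchain and 4 to 7 of Cd3e. S100a4 stood at 151 and 205 CPM in chosen KO cells against 657, 289 and 420 in WT, and at 400 and 532 against 756, 428 and 401 in the other cells. Without cells over 10% immunoglobulin UMIs 9 genes were called.

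Second-day cells, for which no mouse could be named, also held cells that met the rule: 308 of 2392, or 12.9% (95% Wilson interval 11.6 to 14.3).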

How the results depend on the processing

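No difference in shares and no fitted difference of a single named gene changed its direction under the alternatives run for it, but some list medians in kidney did. The AP-1 median went from 0.19 to -0.10 with comparison cells at 0 for the excluded genes and to -0.01 after thinning. That of the dissociation and early activation list went from 0.17 to -0.10 and -0.03 in the same settings. The kidney share exceeded the spleen share by 4.16 points with at least 2 UMIs of each gene, and 47.1% of chosen cells held a Crem UMI after thinning. Genes at least 2-fold different in every mouse numbered 55 with no filter, 8 after thinning, 5 with comparison cells at 0 for the excluded genes, 28 with at least 2 UMIs of each gene, and 23 to 33 without 1 mouse, against 18. In spleen, calls numbered 16 by DESeq2, 0 with no replicate block, 48 with comparison cells at 0 for the excluded genes and 37 to 76 without 1 mouse, against 86. Between organs they numbered 230 with no filter, 73 by DESeq2 and 0 to 54 without 1 mouse, against 147, and 127 with no replicate block. Between genotypes they numbered 114 with no filter, 2 after thinning and 4 to 30 without 1 mouse, against 18. The interaction gave 29 genes with no filter, 0 by DESeq2 (144 at an unadjusted p under 0.05), 0 with no replicate block (303), 0 after thinning (194) and 0 to 62 without 1 mouse, against 8. Thinning was not run for the comparisons with spleen, where too few cells remained. The causes were not tested.

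Fits without 1 KO mouse assume that the remaining one varies like the WT mice. Over the alternatives of single named genes, 214 values stayed and 8 moved for the chosen against other kidney cells. Of calls, 85 stayed and 71 lost the threshold in spleen, 83 and 46 between organs, and 93 and 62 between genotypes. In the 57 spleen cells 3 counts equal 11.3 CPM, so a gene below that level could not be seen to fall.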

Other observations

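Second-day cells gave a further look at the named genes, as 1 pool with no mouse, no organ and no test, so the mix of organs on each side is unknown. All 12 genes raised in the first-day kidney cells were higher in the 308 cells that met the rule than in the other second-day cells (12 of 12), beside 36.2% of the 7914 genes compared, and 9 had counting intervals that did not overlap. Of the 8 lowered genes 7 were lower, beside 63.7% of all genes, 6 with intervals apart, and Cmtm7 was the exception (55.7 against 54.1 CPM). Ccr7 stood at 1155 against 847, St8sia1 at 105 against 62.4 and Ccl5 at 775 against 2558. Itgb1 stood at 590 against 639, the reverse of the first-day order, and median depth was 4143 against 3576 UMIs.

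The chosen kidney cells used many receptor beta segments. Among those with a counted Trbv transcript, the most common segment was Trbv19 in KO1 (14.8% of 108 cells), KO2 (24.2% of 33), WT2 (21.3% of 61) and WT3 (17.0% of 47), and Trbv13-2 in WT1 (17.2% of 284). Between 11 and 20 segments were seen per mouse. In the other kidney cells of the same mice those segments were found in 14.1%, 12.8%, 14.1%, 12% and 16.1%, and these values were not tested.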
